A study of Rattus norvegicus with 8 samples.

Results

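The genes described here are the chemokines, interleukins, TNF superfamily proteins and colony-stimulating factors of the rat neurohypophysis, together with their receptors. They were taken by symbol, as every listed gene whose name starts with Ccl, Cxcl, Ccr, Cxcr, Ackr, Il, Tnfsf, Tnfrsf or Csf in the numbered style of these families, plus Tnf itself, and leaving out Il6st, Il6ra and Csf1r. The table lists no Il6ra and gives the interleukin 6 receptor as Il6r, a symbol that the rule as written takes in, so it is kept as a member, and counts without it are given beside those with it. Of 33294 genes listed, 170 had such a symbol. The members are the 104 of them that reached 10 in 4 or more of the 8 libraries, 60 had reads but stayed under that value, and 6 had no reads in any library. The same threshold left 17919 genes in all for the test. Values are depth-normalized counts, that is, read counts per gene scaled by the authors with a size factor for each library, and they are not corrected for gene length, so levels are compared between ages and not between genes. Since the threshold asks for 4 of 8 libraries, a gene that was high at 1 age alone could pass it.

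RNA from the neurohypophysis, the neural lobe of the pituitary, was sequenced after poly(A) selection in 4 libraries from male Sprague Dawley rats of 125 days and 4 libraries from male Sprague Dawley rats of 35 days. The labels call the 35-day animals controls and name no genotype, drug or other treatment, and every animal was perfused with buffered saline under isoflurane before the lobe was frozen. The stated purpose was to follow how gene expression in this lobe changes with age. Whether the libraries of an age come from different animals is not in the labels. The p-values below therefore describe library-to-library spread, part of which may be technical.

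Chemokines are small secreted proteins that guide leukocytes through receptors coupled to G proteins, while atypical receptors of the Ackr type bind chemokines without that coupling. Most interleukins act through receptor chains that activate JAK kinases and STAT factors, whereas the interleukin 1 family and the TNF receptor family signal through adaptor proteins towards NF-kB. The neural lobe holds axon endings of vasopressin and oxytocin neurons, glial cells called pituicytes, many microglia and a dense bed of leaky capillaries that is open to the blood.

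Libraries held between 28429133 and 58696254 recovered reads. The 35-day replicate 3 stood apart: it scored 59.7 on the second principal component (21.3% of the variance), against -29.3 to -21.8 for the other 35-day libraries. The summed level of 10 anterior lobe marker genes was 6553 to 50197 in the 125-day libraries and 24427 to 228224 in the other 35-day libraries, and it was 1394432 in that replicate; 5 of the 10 genes were called lower at 125 days. The summed level of 5 intermediate lobe genes, Pomc among them, was 3615991 to 5345609 in 125-day libraries and 2016421 to 3764256 in 35-day libraries, and 97.1% to 98.9% of each sum was Pomc. The sum of the other 4 was 60694 to 83343 in 125-day libraries and 40176 to 63779 in 35-day libraries, with that same replicate the lowest. Every result below was therefore also computed without it. In RNA from a whole lobe, fewer cells of a type and less RNA per cell cannot be told apart.

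At 125 days, 9 members were higher and 14 were lower than at 35 days by limma's moderated test on log2(value + 1), at a Benjamini-Hochberg adjusted p under 0.05 over the 17919 genes. These 23 are 22.1% of the members, beside 17.7% of all genes tested; without Il6r, 8 of 103 members were higher and 14 lower, which is 21.4%. Members called higher made up 8.65% of the members, beside 8.85% of all genes, and members called lower made up 13.5%, beside 8.87% of all genes. The median log2 change was -0.038 over the members and 0.0072 over all genes. Both ages lay apart, with no overlap between the 4 libraries of each, for 25% of the members and 24.9% of all genes. Without the 35-day replicate 3, 13 members were higher and 19 lower, which is 30.8% of the members beside 30.7% of all genes. The shares of members with ages apart, and of members called without that replicate, are near the background, so what follows describes which members changed. Library totals made equal in place of the size factors gave 6 members higher and 16 lower. The count of higher members was 4 or 5 on removal of 125-day library 2, 3 or 4 or of 35-day library 2 or 4, numbered by replicate, and that of lower members 7 or 8 on removal of 125-day library 1, 3 or 4 or of 35-day library 2.

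The counts by role stand beside 8.85% of all genes called higher and 8.87% called lower. By role, 0 of the 18 chemokine ligands were called higher by limma, edgeR or DESeq2, and 0 were higher at an unadjusted p under 0.05, while 2 were lower. Among the 12 chemokine receptors 1 was higher and 2 were lower. The 15 interleukins and secreted antagonists held 1 higher and 0 lower, with 3 lower at an unadjusted p under 0.05 and 0 lower by edgeR or DESeq2. The 30 interleukin receptor chains and binding proteins held 4 higher and 4 lower. The 8 TNF superfamily ligands held 2 higher and 1 lower, the 16 TNF receptor superfamily members 1 higher and 5 lower, and the 4 colony-stimulating factor genes 0 of either. The last member, Il4i1, an enzyme of amino acid breakdown named for its induction by interleukin 4, averaged 223 ± 16.5 at 125 days and 199 ± 19.7 at 35 days (SD, n = 4 each; adjusted p = 0.414).

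**Figure D1:**
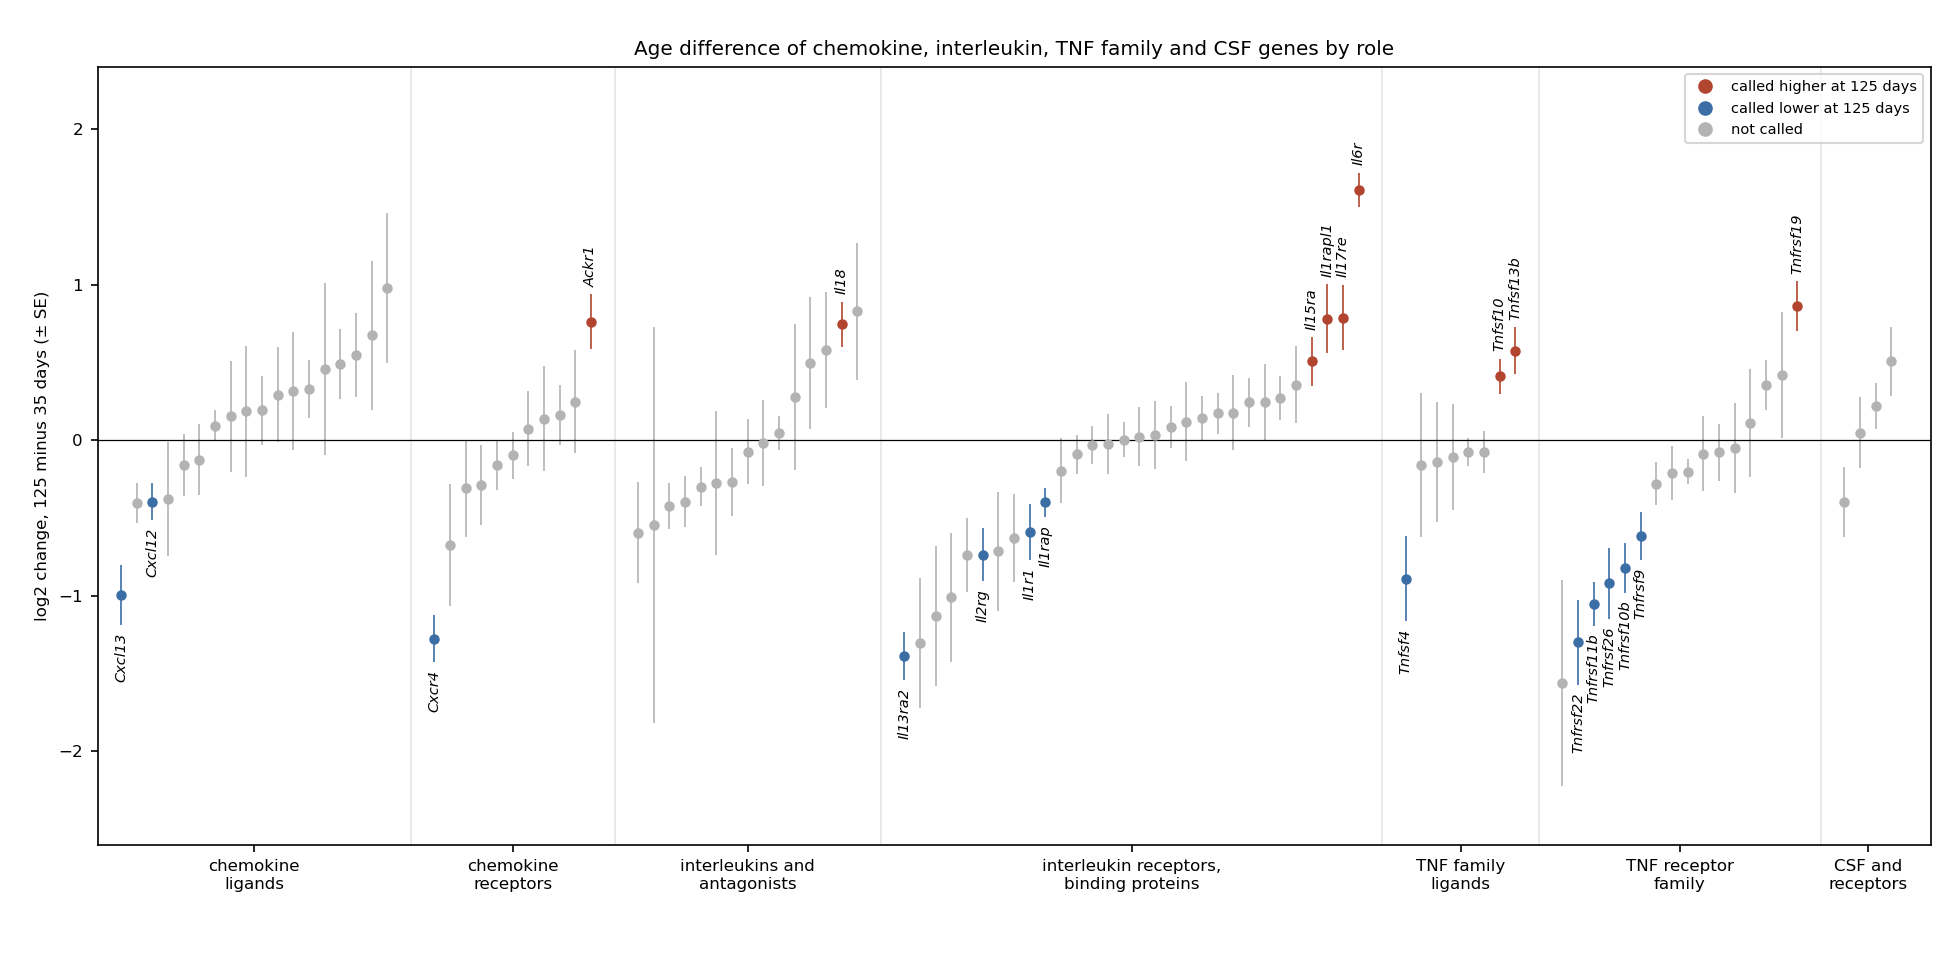
Log2 change of each member, 125 minus 35 days, with its limma standard error as a bar, grouped by role along the x axis and with the called members coloured and named (n = 4 libraries per age; the enzyme gene Il4i1 and 1 called member are not drawn). Called members lie on both sides of 0 among receptors, with Il6r at 1.61 the highest, while both called chemokine ligands lie below 0.

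The member with the largest increase was Il6r, the chain that binds interleukin 6 and passes it to the shared signalling chain gp130. Il6r had values of 3342, 3306, 3185 and 3853 in the 125-day libraries, against 1211, 1257, 1035 and 984 in the 35-day libraries. All 4 values at 125 days stood far above all 4 at 35 days. The mean was 3421 ± 295 at 125 days and 1122 ± 133 at 35 days (SD, n = 4 each), a log2 change of 1.61 ± 0.11 (SE; adjusted p = 1.37e-05). Its adjusted p stayed between 1.05e-05 and 0.00015 whichever library was left out. Of the intermediate lobe genes 1 of 5, Pcsk2, was called higher and none was at 0 in every library, and their part in the Il6r and Il18 values was not tested. Il6 itself, the ligand, was under the threshold with at most 3.91 in any library, and Il6st, which encodes gp130, averaged 14400 ± 788 at 125 days and 13481 ± 3321 at 35 days (SD, n = 4 each; adjusted p = 0.66). In the GRCr8 annotation Il6r overlaps She, which averaged 865 ± 189 at 125 days and 965 ± 245 at 35 days (adjusted p = 0.705), and the strand setting of the counting is not given in the sources used here.

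The promoters of Il6r and of 3 other members whose call held under every alternative are shown, 2 of genes that were higher and 2 of genes that were lower, to let their base composition be compared. Each is the 250 bases before the annotated start in RefSeq, build GRCr8, read 5′ to 3′ on the gene's own strand, with capitals marking matches to TATAAA or to the GC box GGGCGG on either strand.
Il6r: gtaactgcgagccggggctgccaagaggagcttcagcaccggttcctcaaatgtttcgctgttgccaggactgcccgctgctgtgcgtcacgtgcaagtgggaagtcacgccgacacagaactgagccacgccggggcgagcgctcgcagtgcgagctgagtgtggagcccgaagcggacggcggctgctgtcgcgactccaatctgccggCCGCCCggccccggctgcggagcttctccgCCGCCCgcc
Il18: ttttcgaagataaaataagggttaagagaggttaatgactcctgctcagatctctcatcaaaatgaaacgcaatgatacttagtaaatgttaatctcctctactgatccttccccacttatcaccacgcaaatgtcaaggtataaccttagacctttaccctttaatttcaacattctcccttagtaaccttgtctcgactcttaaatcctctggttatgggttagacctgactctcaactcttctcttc
Cxcr4: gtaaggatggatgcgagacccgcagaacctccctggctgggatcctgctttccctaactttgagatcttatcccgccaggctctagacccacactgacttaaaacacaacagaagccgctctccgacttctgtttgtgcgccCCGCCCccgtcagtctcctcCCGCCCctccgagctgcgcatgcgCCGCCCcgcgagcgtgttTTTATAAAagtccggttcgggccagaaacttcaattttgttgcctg
Cxcl13: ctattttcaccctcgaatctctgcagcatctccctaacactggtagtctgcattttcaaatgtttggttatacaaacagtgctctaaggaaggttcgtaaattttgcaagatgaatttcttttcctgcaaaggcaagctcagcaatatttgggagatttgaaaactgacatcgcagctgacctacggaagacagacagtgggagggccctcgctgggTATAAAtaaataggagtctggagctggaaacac

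The Il6r stretch (chr2:177645210-177645459, minus strand) has 68.8% G and C with 29 CpG pairs, and GC boxes end 34 and 4 bases before the start. The Il18 stretch (chr8:59801822-59802071, plus strand) has 38.4% G and C with 4 CpG pairs and no match to any motif searched. Cxcr4 (chr13:42634289-42634538, minus strand) has 57.6% G and C with 18 CpG pairs, 3 GC boxes and a TATAAA on each strand, which overlap by 4 bases. Cxcl13 (chr14:13917921-13918170, minus strand) has 43.6% G and C with 5 CpG pairs and a TATAAA from 33 to 28 bases before the start. Of the members, 76 had an entry in the promoter table, with a median of 53% G and C, against 52% over all 27457 promoters of that length. TATAAA stood in 23.7% of the members' promoters and 13.1% of all promoters, and GGGCGG in 44.7% of the members' and 32.4% of all promoters. The AP-1 motif TGANTCA stood in 14.5% of members and 6.36% of all, the NF-kB consensus in 14.5% of members and 6.41% of all, and the STAT motif TTCNNNGAA in 5.26% of members and 7.52% of all, each on either strand and with overlapping matches within a promoter counted once. None of these last 3 motifs matched in the 4 promoters shown, which says only that these letters are not in this window. A match is a description and not a site.

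Of the 18 chemokine ligands 2 were called, both lower at 125 days, beside 17.7% of all genes called in either direction. The log2 change was above 0 for 12 and below 0 for 6, from -0.99 to 0.98, with a median of 0.19. Over all 17919 genes it was above 0 for 9103 and below 0 for 8816. Cxcl13, the chemokine that attracts B cells through CXCR5, had values of 104, 144, 107 and 152 in the 125-day libraries, against 307, 199, 220.1 and 287 in the 35-day libraries. All 4 values at 125 days were below all 4 at 35 days, and the means were 126 ± 24.6 at 125 days and 253 ± 51.7 at 35 days (SD, n = 4 each; log2 change -0.99 ± 0.19 SE, adjusted p = 0.00647). This call held whichever library was left out, with the adjusted p between 0.00373 and 0.0255. Cxcr5, its receptor, averaged 15.7 ± 2.72 at 125 days and 20.4 ± 6.7 at 35 days and was not called (adjusted p = 0.539). Of 6 tested B and plasma cell markers 4 were lower, with summed levels of 388 to 481 at 125 days and 554 to 670 at 35 days and none at 0 in every library, and their part in the Cxcl13 difference was not tested.

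Cxcl12, the chemokine that holds blood cell precursors in bone marrow and guides vessels and neurons, had 1895, 2352, 1852 and 2131 at 125 days, against 2694, 2868, 2264 and 2991 at 35 days. The ages overlapped, because the 35-day replicate 3 was below the 125-day replicate 2. The log2 change was -0.39 ± 0.12 (SE; adjusted p = 0.0429), and without the 35-day replicate 3 it was -0.48 (adjusted p = 0.00376). The call was lost on removal of 125-day library 1, 3 or 4 or of 35-day library 1, 2 or 4, with the adjusted p between 0.0879 and 0.131, and with the mean level of 20 microglia and macrophage markers as a covariate (log2 change -0.36, adjusted p = 0.129). It was kept with the mean level of the anterior lobe marker genes as a covariate (log2 change -0.58, adjusted p = 0.025). Cxcl14, a chemokine-like protein made by epithelia and connective tissue and the member with the highest values, had 6638, 5426, 5788 and 7077 at 125 days, against 8119.5, 7692, 9920.4 and 7249 at 35 days. Its ages did not overlap, the log2 change was -0.40 ± 0.13 (SE), and the adjusted p of 0.0539 missed the threshold, but passed it without 35-day replicate 3 (0.0344) or 35-day replicate 4 (0.0476). Fibroblast markers were lower for 9 of 10 genes, with summed levels of 33785 to 51998 at 125 days and 85155 to 113744 at 35 days and none at 0 in every library, and their part in the values of both chemokines was not tested.

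Ccl2, Ccl5 and Ccl3 did not pass the test. Ccl2, the monocyte attractant, averaged 50.3 ± 2.65 at 125 days and 57.2 ± 14 at 35 days (SD, n = 4 each; adjusted p = 0.637). Ccl5, a T cell and monocyte attractant, averaged 45 ± 13 at 125 days and 42.5 ± 22.1 at 35 days (adjusted p = 0.806), and Ccl3, a macrophage inflammatory protein, averaged 17.8 ± 9.33 at 125 days and 13.6 ± 5.51 at 35 days (adjusted p = 0.611). The interferon-induced CXCR3 ligands scattered within the ages: Cxcl9 had 31.5, 33.2, 16.4 and 109 at 125 days, against 24.3, 20.7, 18.5 and 29.4 at 35 days. A single 125-day library, replicate 4, carried that higher mean. Cxcl10 averaged 111 ± 49.5 at 125 days and 147 ± 59.3 at 35 days (adjusted p = 0.525), and Cxcl11 averaged 11.2 ± 7.22 at 125 days and 7.23 ± 3.8 at 35 days (adjusted p = 0.612). Ccl27, a skin chemokine that overlaps Il11ra1 in the annotation, averaged 238 ± 31.4 at 125 days and 175 ± 62.5 at 35 days (adjusted p = 0.164), and it was called higher without the 35-day replicate 3 (log2 change 0.71, adjusted p = 0.00779). The chemokine ligands not named here had adjusted p-values of 0.195 or more.

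Cxcr4, the receptor of CXCL12 that is carried by leukocytes, precursor cells and some vessel cells, had 239, 330.4, 259.7 and 247 in the 125-day libraries, against 521, 669.6, 776 and 649 in the 35-day libraries. All 4 values at 125 days lay below the lowest at 35 days. Its mean was 269 ± 41.8 at 125 days and 654 ± 105 at 35 days (SD, n = 4 each), a log2 change of -1.28 ± 0.15 (SE; adjusted p = 0.000443). Ackr3, which takes up the same chemokine without G protein signalling, averaged 842 ± 159 at 125 days and 939.8 ± 155 at 35 days and was not called (adjusted p = 0.535).

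Of 20 microglia and macrophage markers 1 was higher and 4 were lower, with summed levels of 16373 to 23361 at 125 days and 20550 to 23747 at 35 days and none at 0 in every library. Cd68 was the higher one (log2 change 0.90). Tmem119 (-1.13), P2ry12 (-1.01), Aif1 (-0.74) and Lyve1 (-0.70) were the lower ones. With the mean level of the 20 markers as a covariate, the log2 change of Cxcr4 was -1.18 ± 0.16 (SE; adjusted p = 0.00246). That mean, on the log2 scale, overlapped between the ages, at 9.04 to 9.51 at 125 days and 9.37 to 9.53 at 35 days. It averages markers that moved in both directions, so the part of microglia in the Cxcr4 value was not tested by this fit. Ccr2, the receptor of CCL2 on monocytes, averaged 65.4 ± 13.1 at 125 days and 62.9 ± 17.2 at 35 days (adjusted p = 0.866), and Cx3cr1, the microglial fractalkine receptor that the symbols used here do not take in, averaged 712 ± 171 at 125 days and 773 ± 252 at 35 days (adjusted p = 0.884).

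Ackr1, the Duffy antigen that binds many chemokines on the endothelium of small veins and on red cells, was the only chemokine receptor called higher. Its values were 86.3, 126, 115 and 97.8 at 125 days, against 52.3, 67.2, 62.1 and 65.5 at 35 days, so that the ages did not overlap. The mean was 106 ± 17.6 at 125 days and 61.8 ± 6.63 at 35 days (SD, n = 4 each; log2 change 0.76 ± 0.18 SE, adjusted p = 0.0148), and without the 125-day replicate 3 the adjusted p was 0.0529. With the mean level of the anterior lobe genes as a covariate, called the anterior lobe covariate below, it was 0.068 (log2 change 0.79). Endothelial markers were lower at 125 days for 9 of 14 genes, with summed levels of 16402 to 31782 at 125 days and 26594 to 36151 at 35 days, and erythroid markers for 6 of 6 genes, with 2057 to 4872 at 125 days and 8756 to 14958 at 35 days, none of either list at 0 in every library, and their part in the Ackr1 value was not tested. Ccr3, the eosinophil receptor, had the largest difference among the receptors not called, at 10.6 ± 2.76 at 125 days and 18.8 ± 9.62 at 35 days (adjusted p = 0.273). With the anterior lobe covariate Ccr3 was called lower (log2 change -1.57, adjusted p = 0.0304). Ccr1, Ccr7, Ccr10 and Cxcr3 had adjusted p-values of 0.491 or more.

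**Figure D2:**
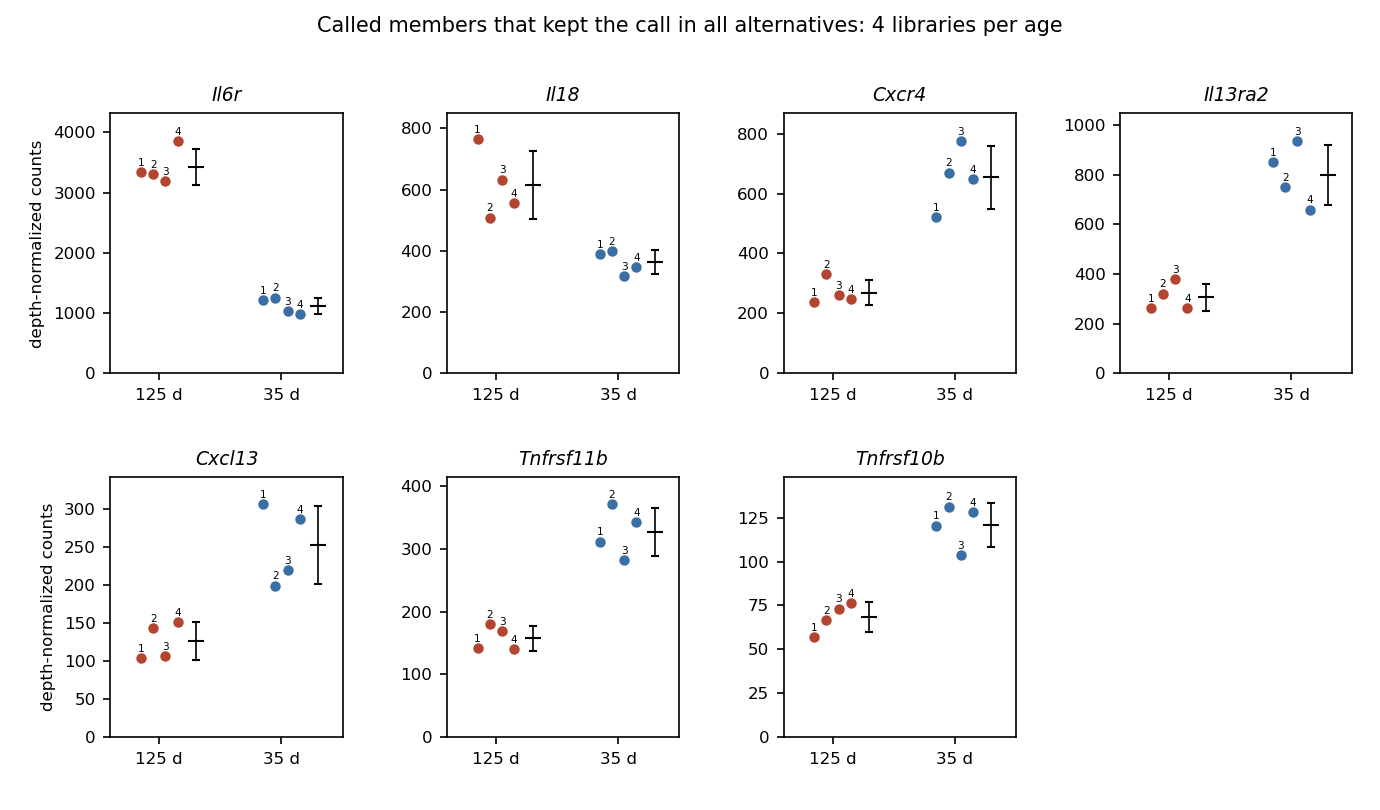
Depth-normalized counts in each library (points) with the mean and SD of each age (n = 4 each), 125 days at the left of each panel, for 7 of the 8 members whose call and direction held under every alternative. In each panel the points of both ages do not overlap, with Il6r and Il18 higher at 125 days and the other members lower.

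Of the interleukins themselves, Il18 alone passed the test. Il18 encodes a member of the interleukin 1 family that is stored as a precursor and released after cleavage by caspase 1. It had 764, 508, 633 and 556 at 125 days, against 388, 399.9, 318 and 348 at 35 days. Every 125-day library was above every 35-day library, and the 125-day replicate 1 was the highest. The mean was 615 ± 112 at 125 days and 364 ± 37.6 at 35 days (SD, n = 4 each; log2 change 0.75 ± 0.14 SE, adjusted p = 0.00633), and with any library left out the adjusted p was at most 0.0256. Il18 overlaps Bco2 and Tex12 in the GRCr8 annotation. Bco2 was also higher, at 508 ± 28.1 in 125-day libraries against 205 ± 48 in 35-day libraries (adjusted p = 0.000874). Tex12 averaged 35.1 ± 7.61 at 125 days and 17.5 ± 9.23 at 35 days (adjusted p = 0.0714). Reads of Il18 and of these genes cannot be told apart where they overlap, the strand setting being not given in the sources used here.

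Neither chain of the IL-18 receptor was called. Il18r1, the binding chain, averaged 143 ± 27.8 at 125 days and 115 ± 33 at 35 days (adjusted p = 0.36). Il18rap, the accessory chain, had 14.2, 9.77, 6.3 and 14.7 at 125 days, against 37.7, 38.2, 12 and 34.4 at 35 days. The 35-day replicate 3 alone fell among the 125-day values, and the adjusted p was 0.0574 with it and 0.00396 without it (log2 changes of -1.30 and -1.69). Il18bp, the soluble protein that neutralizes interleukin 18, averaged 342 ± 33.5 at 125 days and 292 ± 65.9 at 35 days (adjusted p = 0.324), and without that replicate it was called higher (log2 change 0.39, adjusted p = 0.02).

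Tnf and the interleukin 1 genes did not pass the test. Il1b had 34.5, 34.2, 27.7 and 30.3 at 125 days, against 29.2, 28.9, 54.5 and 22.6 at 35 days (adjusted p = 0.975). Tnf had 13.2, 4.89, 15.1 and 9.78 at 125 days, against 8.52, 17.6, 9.81 and 10.2 at 35 days (adjusted p = 0.845). For both genes the ages overlapped throughout. Il1a averaged 13.2 ± 4.5 at 125 days and 8.5 ± 3.34 at 35 days (adjusted p = 0.325), and Il1rn, the natural antagonist of the IL-1 receptor, averaged 38.3 ± 15.3 at 125 days and 29.3 ± 20.6 at 35 days (adjusted p = 0.46).

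Il33, Il34, Il16 and Il17d did not pass the test either. Il33, a nuclear alarmin of the interleukin 1 family, averaged 597 ± 72.4 at 125 days and 735 ± 101 at 35 days (adjusted p = 0.141). Its receptor Il1rl1 averaged 81.4 ± 19.5 at 125 days and 137 ± 34.2 at 35 days (adjusted p = 0.059), and it was called lower without 35-day replicate 3 (adjusted p = 0.00761) or 125-day replicate 2 (0.042). Il34, a second ligand of the CSF1 receptor that microglia depend on, had 543, 539.5, 518 and 524 at 125 days against 436, 531, 572 and 527 at 35 days (adjusted p = 0.803). Il16, a chemoattractant of CD4 cells, had 119, 171, 170.2 and 172 at 125 days, against 175, 228, 195 and 228 at 35 days. Its ages did not overlap, but the adjusted p was 0.133. Il17d averaged 651 ± 27.6 at 125 days and 714 ± 258 at 35 days (adjusted p = 0.85), with the 35-day replicate 3 at 1081. The interleukins Il7, Il11, Il12a, Il23a and Il25 had adjusted p-values of 0.231 or more. Il22 showed the widest scatter, from 0 to 83.1 among the 125-day libraries and from 12.4 to 81.6 among the 35-day libraries.

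Interleukin receptor chains moved in both directions. The called member with the lowest log2 change was Il13ra2, which binds interleukin 13 tightly and is known mainly as a decoy. Il13ra2 had 264, 322, 378 and 263 at 125 days, against 852, 750.2, 936 and 659.8 at 35 days, with a wide gap between the ages. The mean was 307 ± 55 at 125 days and 799.5 ± 120.2 at 35 days (SD, n = 4 each; log2 change -1.38 ± 0.16 SE, adjusted p = 0.000314), and the adjusted p was at most 0.00183 with any library left out. The signalling receptor of interleukins 4 and 13 did not pass the test: Il4r averaged 919.8 ± 77.8 at 125 days and 873 ± 147 at 35 days (adjusted p = 0.701). Il13ra1, the other chain of that receptor, had 849, 958, 849 and 886 at 125 days, against 811, 774, 539 and 848 at 35 days. Its ages lay apart by a narrow margin (adjusted p = 0.227). Il13 had no reads in any library, and Il4 reached at most 1.22.

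The receptor of interleukin 1 was lower in both of its chains. Il1r1, the binding chain, had 976, 1582, 1253 and 1291 at 125 days, against 2018, 2471, 1527 and 1681 at 35 days. The ages overlapped at their edges, since the 125-day replicate 2 was above the 35-day replicate 3. Its log2 change was -0.59 ± 0.18 (SE; adjusted p = 0.0464), and it was -0.69 without that 35-day library (adjusted p = 0.0114). Il1rap, the accessory chain that interleukins 1 and 33 share, had 909, 857, 918 and 917 at 125 days, against 1236, 1295, 1198 and 1033 at 35 days, with no overlap (log2 change -0.40 ± 0.09 SE, adjusted p = 0.0178). In the GRCr8 annotation Il1rap overlaps LOC120095686, which averaged 6.92 ± 3.01 at 125 days and 17.7 ± 5.06 at 35 days (adjusted p = 0.0351). The Il1r1 call was lost on removal of 125-day library 1, 3 or 4 or of 35-day library 1, 2 or 4 (adjusted p 0.0563 to 0.127), and the Il1rap call on removal of 125-day library 3 or 4 or of 35-day library 2 (0.0514 to 0.06). With the microglia and macrophage marker level as a covariate, the log2 changes were -0.42 for Il1r1 (adjusted p = 0.133) and -0.40 for Il1rap (adjusted p = 0.0538). With the anterior lobe covariate Il1r1 kept its call at -0.84 (adjusted p = 0.0336), while Il1rap was at -0.37 (adjusted p = 0.0952).

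Il1rapl1, a relative of these chains that is known as an organizer of synapses and as a gene of intellectual disability, went the other way. It had 185, 175, 267 and 206 at 125 days, against 166, 127, 82.8 and 115 at 35 days, without overlap. The log2 change was 0.78 ± 0.22 (SE; adjusted p = 0.0353), and the call was lost on removal of 125-day library 1, 3 or 4 or of 35-day library 2 or 4 (adjusted p 0.0678 to 0.106). Its adjusted p was 0.319 with the anterior lobe covariate (log2 change 0.44) and 0.0729 with the microglia and macrophage covariate (0.83).

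Chains of the interleukin 2 and 15 receptors also diverged. Il2rg, the common gamma chain that interleukins 2, 4, 7, 15 and 21 share, had 111, 151, 98.3 and 141 at 125 days, against 179, 224, 196 and 229 at 35 days, with no overlap. The log2 change was -0.73 ± 0.17 (SE; adjusted p = 0.0159), and on removal of 125-day library 1 or 3 or of 35-day library 2 the adjusted p was 0.0504 to 0.0526. It was 0.0605 with the anterior lobe covariate and 0.0528 with the microglia and macrophage covariate (log2 changes of -0.78 and -0.71). Il15ra, which presents interleukin 15 to neighbouring cells, was higher, with 166, 151, 202 and 161 at 125 days against 135, 130.2, 101 and 110.1 at 35 days. Its log2 change was 0.51 ± 0.15 (SE; adjusted p = 0.0478), close to the threshold, and the call was lost when any library other than 35-day replicate 3 was left out (adjusted p 0.0529 to 0.146), with the anterior lobe covariate (log2 change 0.40, adjusted p = 0.251) and with the microglia and macrophage covariate (0.54, adjusted p = 0.087). Il15 averaged 115 ± 18.6 at 125 days and 154 ± 11.3 at 35 days and was not called (adjusted p = 0.0836), except without 125-day replicate 2 (0.0363). Il2rb averaged 46.8 ± 10.4 at 125 days and 44.8 ± 4.01 at 35 days (adjusted p = 0.934). Il2ra, the neighbour of Il15ra in the genome and the alpha chain that marks activated and regulatory T cells, had 12.2, 11.7, 7.56 and 12.7 at 125 days, against 13.4, 22.7, 16.3 and 18.1 at 35 days, apart but not called (adjusted p = 0.16). Of 9 tested T and NK cell markers 2 were higher and none lower, with summed levels of 1313 to 1902 at 125 days and 1003 to 1226 at 35 days and none at 0 in every library. Cd4, which rat macrophages also express, made up 71.8% to 83.4% of each sum, and without it the ages overlapped, at 217 to 392 in 125-day libraries and 191 to 345 in 35-day libraries. The part of these markers in the values above was not tested.

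Il17re, a receptor chain for interleukin 17C best known from epithelia, had 116, 172, 112 and 152 at 125 days, against 68.2, 107, 75.2 and 67.7 at 35 days. The lowest 125-day library was just above the highest 35-day library. The log2 change was 0.79 ± 0.21 (SE; adjusted p = 0.0274), and on removal of 125-day library 2 or 4 or of 35-day library 1 or 4 the adjusted p was 0.0632 to 0.0867. The anterior lobe covariate left the log2 change at 0.78 (adjusted p = 0.113). Its neighbour Il17rc averaged 587 ± 31.4 at 125 days and 604 ± 99.3 at 35 days (adjusted p = 0.905), and Il17ra, the chain that both use as a partner, averaged 1053 ± 44.8 at 125 days and 945 ± 162 at 35 days (adjusted p = 0.401). Il17rd, also known as Sef and a brake on growth factor signalling, had 3414, 4367, 3550.4 and 3443 at 125 days, against 4577, 4513, 1863 and 3385 at 35 days. Its 35-day values spread widely, with replicate 3 the lowest, and the log2 change of 0.12 (adjusted p = 0.787) turned to -0.17 without that replicate. Il11ra1, the interleukin 11 receptor, averaged 1807 ± 158 at 125 days and 1935 ± 320.1 at 35 days (log2 change -0.09, adjusted p = 0.677), and this too changed sign without that replicate, to 0.013. Il7r averaged 162 ± 12.9 at 125 days and 191 ± 52.6 at 35 days (adjusted p = 0.568), and was called lower without it (log2 change -0.41, adjusted p = 0.0397). Another 9 receptor chains and binding proteins, among them Il10ra, Il10rb, Il12rb1 and Il21r, had adjusted p-values of 0.114 or more.

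Of the 16 TNF receptor superfamily members, 12 had a log2 change below 0 (median -0.21), 5 were called lower and 1 higher. Over all 17919 genes, 8816 had a log2 change below 0, 8.87% were called lower and 8.85% higher. Tnfrsf11b, or osteoprotegerin, a secreted decoy for RANK ligand that also binds TRAIL, had 142, 179.8, 169 and 139.8 at 125 days, against 312, 372, 282 and 343 at 35 days. The ages were well apart, with means of 158 ± 19.8 at 125 days and 327 ± 38.9 at 35 days (SD, n = 4 each; log2 change -1.05 ± 0.14 SE, adjusted p = 0.000881). Tnfrsf11a, which encodes RANK, averaged 125 ± 24.4 at 125 days and 143 ± 15.9 at 35 days (adjusted p = 0.452), and Tnfsf11, its ligand, was under the threshold with at most 3.1 in any library.

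Tnfrsf10b, the death receptor of TRAIL, had 56.9, 66.5, 73.1 and 76.2 at 125 days, against 121, 131, 104 and 128 at 35 days. No 125-day value reached the 35-day range (log2 change -0.82 ± 0.16 SE, adjusted p = 0.00689, and at most 0.0272 with any library left out). Tnfrsf10b overlaps Rhobtb2 in the annotation, which moved the opposite way, with 2455 ± 197 in 125-day libraries against 1744 ± 202 in 35-day libraries (adjusted p = 0.0102). Tnfrsf22, whose mouse counterpart is a decoy receptor for TRAIL, had 20.3, 28.3, 12.6 and 21.5 at 125 days, against 39, 57.9, 59.9 and 48 at 35 days, again with no overlap (log2 change -1.30 ± 0.27 SE, adjusted p = 0.00991, and -1.19 with adjusted p = 0.073 under the anterior lobe covariate). Tnfrsf26, a related receptor that is adjacent to it in the genome, had 47.7, 82.1, 55.5 and 44 at 125 days, against 96.2, 117, 131 and 86.4 at 35 days, with a log2 change of -0.92 ± 0.23 (SE; adjusted p = 0.0215). The Tnfrsf26 call was lost on removal of 125-day library 1, 3 or 4 or of 35-day library 2 (adjusted p 0.0573 to 0.0691), with the anterior lobe covariate (log2 change -0.90, adjusted p = 0.0986) and with the microglia and macrophage covariate (-0.73, adjusted p = 0.0655). How the authors' counting treated reads that related neighbours share is not given in the sources used here, so the split between these 2 genes is uncertain.

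TRAIL itself, encoded by Tnfsf10, was called in the opposite direction. Tnfsf10, a ligand that can trigger cell death and is induced by interferons, had 738, 1016, 802 and 901 at 125 days, against 687, 609.7, 637 and 647 at 35 days. The lowest 125-day library was above the highest 35-day library by a small step, and the log2 change was 0.41 ± 0.11 (SE; adjusted p = 0.0329). The call was lost on removal of 125-day library 2, 3 or 4 or of 35-day library 1, 2 or 4 (adjusted p 0.0513 to 0.102), and with the anterior lobe covariate, where the log2 change was 0.27 (adjusted p = 0.258). For this signal the plot of ligands and receptors shows 1 called ligand above 0 and 2 called receptors below 0.

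**Figure D3:**
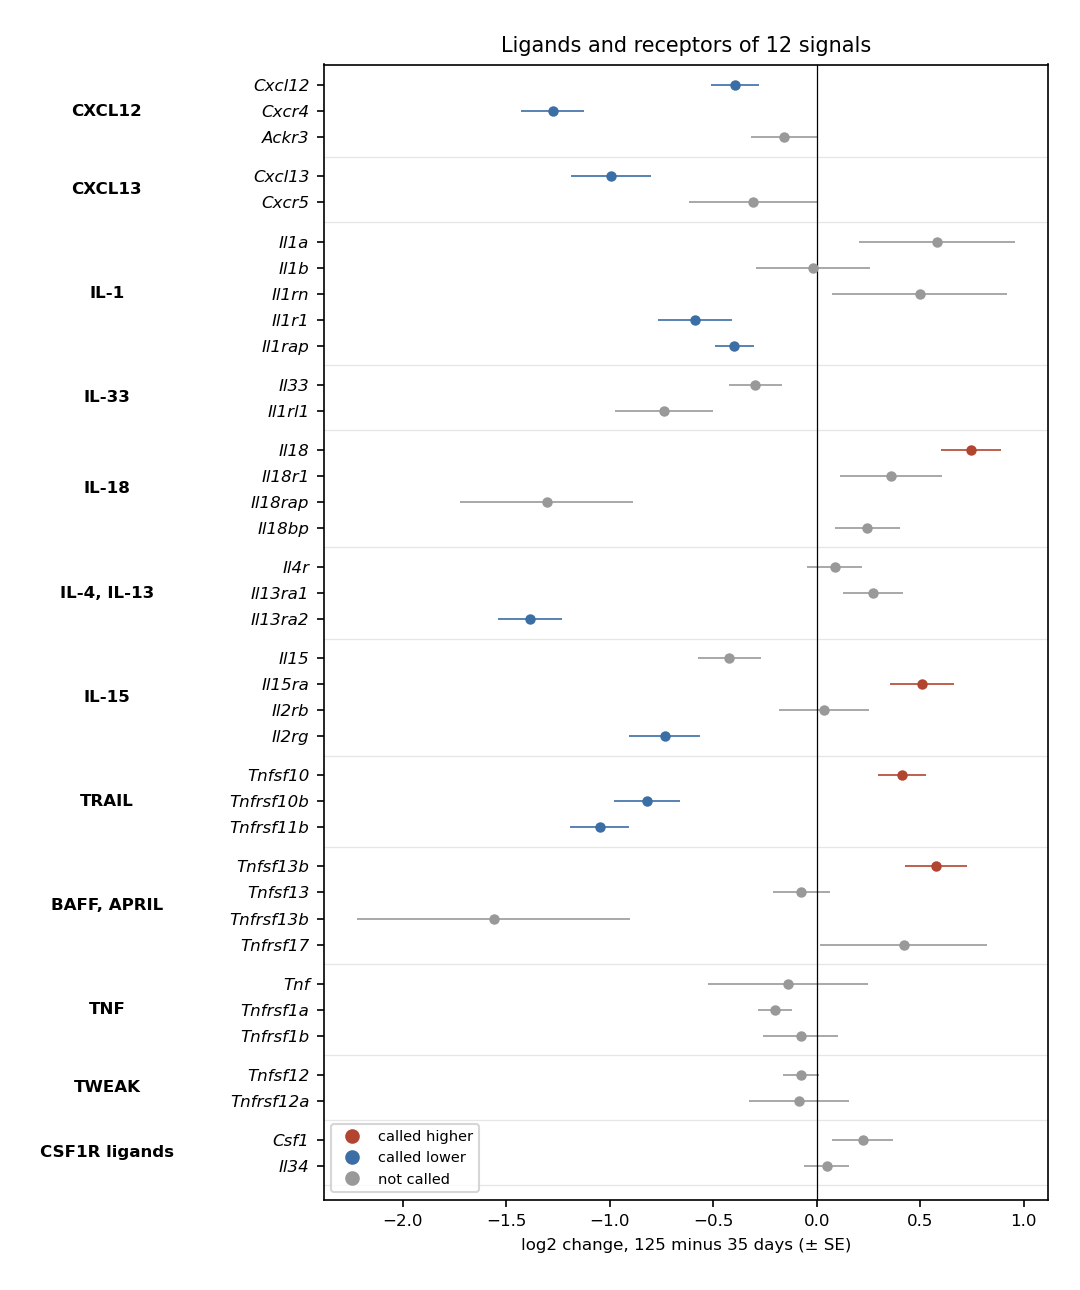
Log2 change, 125 minus 35 days, with the limma standard error (n = 4 libraries per age) for ligands and receptors grouped by signal, called members coloured. For TRAIL, Tnfsf10 lies at 0.41 while Tnfrsf10b and Tnfrsf11b lie at -0.82 and -1.05; for CXCL12, Cxcl12, Cxcr4 and Ackr3 lie at -0.39, -1.28 and -0.16.

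Tnfrsf9, the costimulatory receptor 4-1BB, had 143, 211, 179 and 167 at 125 days, against 269, 239, 316 and 246 at 35 days, with no overlap. The log2 change was -0.61 ± 0.15 (SE; adjusted p = 0.0222), and on removal of 125-day library 1, 3 or 4 or of 35-day library 1 the adjusted p was 0.0526 to 0.0678. It was 0.0922 with the anterior lobe covariate and 0.0761 with the microglia and macrophage covariate (log2 changes of -0.62 and -0.51). Its ligand Tnfsf9 was at the edge of detection, at 8.9 ± 4.83 at 125 days and 9.38 ± 3.66 at 35 days (adjusted p = 0.851). Tnfsf4, or OX40 ligand, had 14.2, 13.7, 11.3 and 8.8 at 125 days, against 23.1, 26.9, 26.2 and 16.4 at 35 days, with a log2 change of -0.89 ± 0.27 (SE; adjusted p = 0.0488). This call was lost when any library other than 35-day replicate 4 was left out (adjusted p 0.064 to 0.137), with the anterior lobe covariate (log2 change -0.85, adjusted p = 0.195) and with the microglia and macrophage covariate (-0.83, adjusted p = 0.127). Its receptor Tnfrsf4 averaged 13.8 ± 3.4 at 125 days and 14.4 ± 3.73 at 35 days (adjusted p = 0.932).

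Tnfrsf19, or TROY, a receptor of neural tissue that takes part in signals limiting axon growth, was the TNF receptor called higher. It had 184, 232, 214 and 189.6 at 125 days, against 135, 107, 89.4 and 120.2 at 35 days. No 35-day value reached the 125-day range (log2 change 0.86 ± 0.16 SE, adjusted p = 0.00555, and at most 0.0231 with any library left out). The anterior lobe covariate gave a log2 change of 0.53 (adjusted p = 0.0772). Pituicyte markers, by contrast, were lower for 3 of 9 genes, and for 6 of 9 without 35-day replicate 3. Their summed levels were 53244 to 78026 at 125 days and 68910 to 113532 at 35 days. The lowest 35-day sum was that of replicate 3, and the other 35-day libraries had 85675 to 113532. No pituicyte marker was at 0 in every library, and their part in the Tnfrsf19 value was not tested.

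Tnfsf13b, or BAFF, the survival factor of B cells, had 168, 164, 177 and 139.8 at 125 days, against 116, 95.1, 126 and 97.6 at 35 days, with no overlap. Its log2 change was 0.58 ± 0.15 (SE; adjusted p = 0.0258), and the call was lost on removal of 125-day library 1, 2 or 3 or of 35-day library 2 or 4 (adjusted p 0.0548 to 0.0845), with the anterior lobe covariate (log2 change 0.61, adjusted p = 0.0891) and with the microglia and macrophage covariate (0.59, adjusted p = 0.061). Its receptor Tnfrsf13b, or TACI, had 6.09, 24.4, 1.26 and 7.82 at 125 days, against 23.1, 19.6, 12 and 41.2 at 35 days. The 125-day replicate 2 fell within the 35-day range, and the adjusted p was 0.136 with it and 0.034 without it (log2 changes of -1.56 and -2.13). Tnfrsf13c, the BAFF receptor, was under the threshold with at most 11 in any library, and Tnfrsf17, the plasma cell receptor BCMA, averaged 16.8 ± 5.79 at 125 days and 13 ± 6.91 at 35 days (adjusted p = 0.521).

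The remaining TNF receptors and ligands did not pass the test. Tnfrsf1a, the main receptor of TNF, had 2164, 2368, 2247 and 2215 at 125 days, against 2553, 2689, 2718 and 2391 at 35 days. These ages were apart by a small margin, and the log2 change of -0.20 ± 0.08 (SE) was not called (adjusted p = 0.116). Tnfrsf1b, its second receptor, averaged 452 ± 108 at 125 days and 473 ± 78.6 at 35 days (adjusted p = 0.813). Tnfsf12, or TWEAK, averaged 1719 ± 123 at 125 days and 1808 ± 95.9 at 35 days (adjusted p = 0.608), and its receptor Tnfrsf12a averaged 545 ± 122 at 125 days and 589 ± 205 at 35 days (adjusted p = 0.846). Tnfrsf21, or death receptor 6, averaged 847 ± 40.9 at 125 days and 1042 ± 193 at 35 days (adjusted p = 0.205), and without the 35-day replicate 3 it was called lower (log2 change -0.42, adjusted p = 0.00292). Tnfrsf25, or death receptor 3, was called higher on the same condition (log2 change 0.47, adjusted p = 0.0249). Tnfrsf14, Tnfsf13 and Tnfsf15 had adjusted p-values of 0.756 or more.

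Of the 4 colony-stimulating factor genes 0 were called by limma, edgeR or DESeq2, with 1 at an unadjusted p under 0.05. Csf1, the growth factor of microglia and macrophages, averaged 1421 ± 221 at 125 days and 1219 ± 208 at 35 days (adjusted p = 0.338), and its receptor Csf1r, outside the symbols used here, averaged 4182 ± 903 at 125 days and 4330.3 ± 798 at 35 days (adjusted p = 0.871). Csf2ra, the binding chain for GM-CSF, had 278, 324, 340.4 and 293 at 125 days, against 153, 195, 349 and 209 at 35 days. The 35-day replicate 3 alone overlapped the 125-day libraries, and without it Csf2ra was called higher (log2 change 0.74, adjusted p = 0.00352, against 0.148 with it). Csf3r, the granulocyte growth factor receptor, averaged 138 ± 38.2 at 125 days and 180.4 ± 38.4 at 35 days (adjusted p = 0.266), and without that replicate it was called lower (log2 change -0.57, adjusted p = 0.0489). Marrow granulocyte and neutrophil markers were lower for 5 of 7 tested genes, with summed levels of 105 to 319 at 125 days and 699 to 1243 at 35 days and none at 0 in every library, and their part in the Csf3r value was not tested.

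Of 33 tested relatives of these families that carry other names, 3 were higher and 2 lower, beside 17.7% of all genes called in either direction. Cd74, the invariant chain of MHC class II that also serves as receptor of the cytokine MIF, had 7156, 7647, 8052 and 9432 at 125 days, against 2817, 2212, 3713 and 2915 at 35 days, a log2 change of 1.49 ± 0.15 (SE; adjusted p = 0.000193). Relt, a TNF receptor relative, was higher (log2 change 0.47, adjusted p = 0.0139, and 0.0564 without 125-day replicate 4). Xcr1, the chemokine receptor of cross-presenting dendritic cells, averaged 33.4 ± 1.36 at 125 days and 18.9 ± 5.95 at 35 days (adjusted p = 0.0464), a call lost on removal of any library except 35-day replicate 1 (adjusted p 0.0573 to 0.119). Cd40, the costimulatory receptor of B cells and other antigen-presenting cells, averaged 51.2 ± 12.2 in 125-day libraries against 90.7 ± 17 in 35-day libraries (log2 change -0.82, adjusted p = 0.0243), a call lost on removal of 125-day library 1, 3 or 4 or of 35-day library 2 (0.0665 to 0.0751). Ltbr, the lymphotoxin beta receptor, had a log2 change of -0.33 (adjusted p = 0.0421), lost on removal of 125-day library 1, 3 or 4 or of 35-day library 2 or 4 (0.0601 to 0.132).

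Genes that act downstream of these receptors were taken from 3 lists, whose counts stand beside 17.7% of all genes called in either direction. In the list of 33 TNF receptor and NF-kB signalling genes 2 were higher and 0 lower, with Cyld, a deubiquitinase that restrains NF-kB, at 2938 ± 130 in 125-day libraries against 2200.1 ± 195 in 35-day libraries (log2 change 0.42, adjusted p = 0.0102). Map3k14, the kinase NIK of the alternative NF-kB route, had a log2 change of 0.43 (adjusted p = 0.0172), lost on removal of 125-day library 3 (0.0568) or 4 (0.067). In the list of 18 interleukin 1 and inflammasome genes Irak2, a kinase that sustains IL-1 receptor signals, was higher, with 753, 658, 745 and 755 at 125 days against 459, 378, 490.4 and 384 at 35 days, a log2 change of 0.77 ± 0.12 (SE; adjusted p = 0.00176). Casp1, the protease that matures interleukins 1 beta and 18, was lower in the same list, at 178 ± 22.5 in 125-day libraries against 248 ± 20.7 in 35-day libraries (log2 change -0.48, adjusted p = 0.0353), a call lost on removal of 125-day library 1, 3 or 4 or of 35-day library 1 or 2 (0.0723 to 0.113). Of 29 tested JAK-STAT genes 3 were higher and 0 lower, namely Jak3 (log2 change 0.38), Stat2 (0.35) and Pim1 (0.60), and each of these calls was lost on removal of 125-day library 1, 2 or 4 or of 35-day library 1 or 2, those of Stat2 and Pim1 also on removal of 125-day library 3 (adjusted p 0.0551 to 0.114). In both lists with 0 lower, edgeR and DESeq2 also called 0 lower, while 1 gene of the TNF receptor and NF-kB list and 4 of the JAK-STAT list were lower at an unadjusted p under 0.05. Without the 35-day replicate 3, the TNF receptor and NF-kB list gave 3 higher and 4 lower, and the JAK-STAT list 8 higher and 4 lower. Without that library 30.7% of all genes were called.

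**Figure D4:**
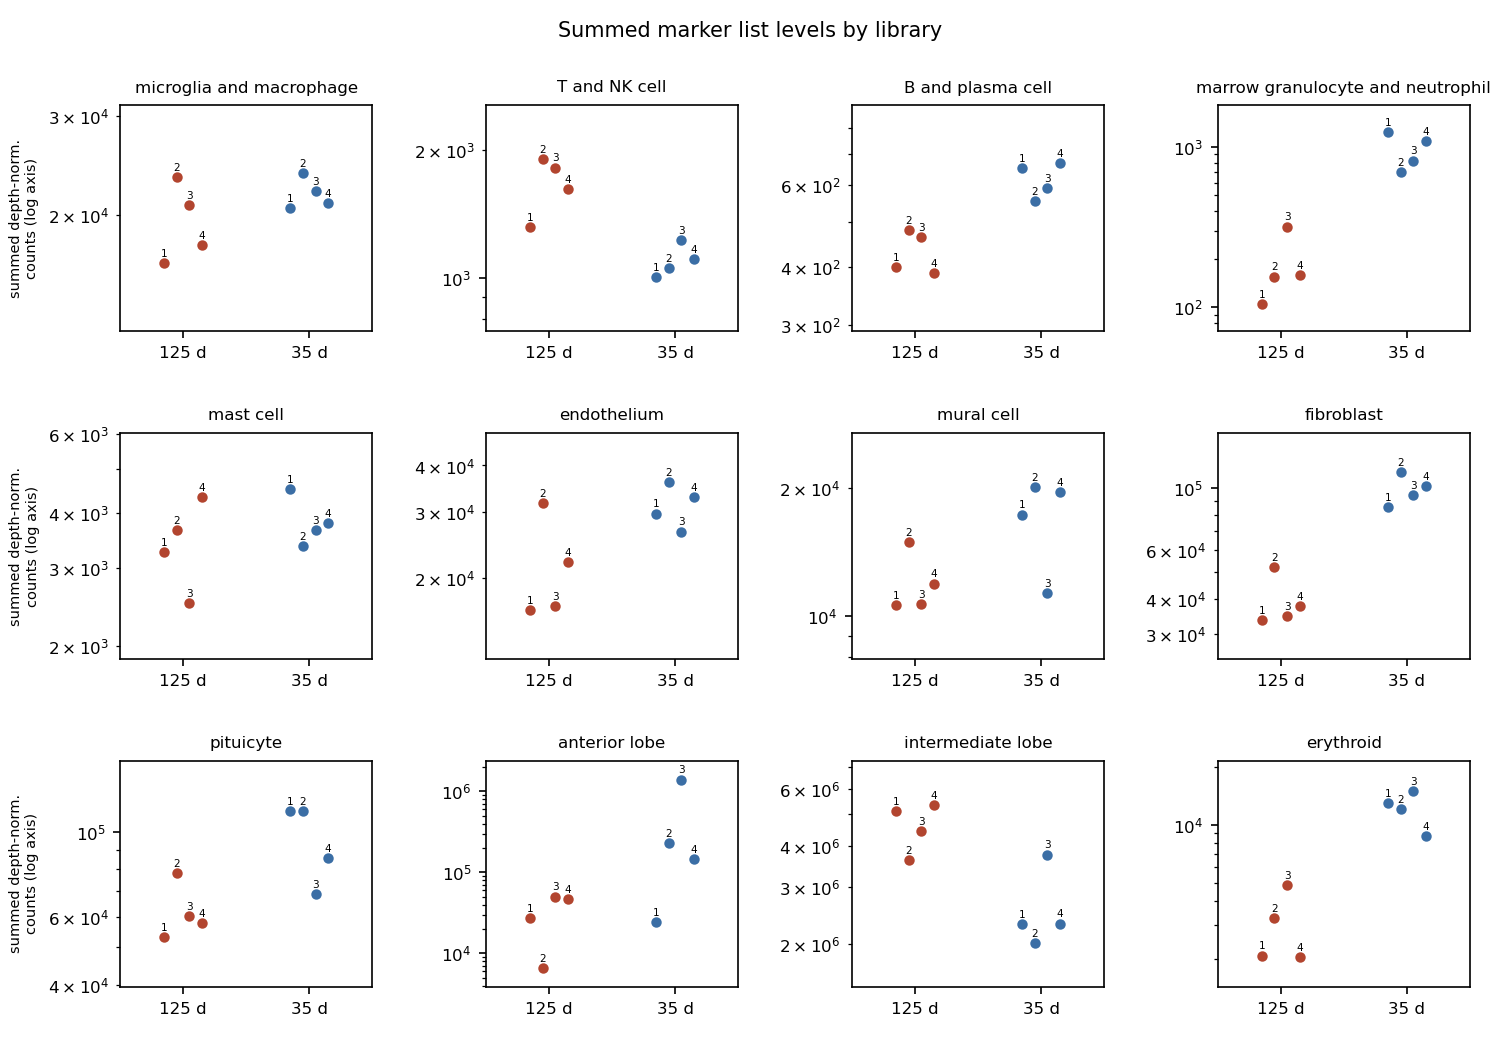
Summed depth-normalized counts of each cell type marker list by library (points, log axis), 125 days at the left of each panel. The fibroblast, erythroid and marrow granulocyte sums of the 4 libraries of 125 days all lie below those of 35 days, and the anterior lobe panel shows the 35-day replicate 3 at 1394432.

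The threshold left familiar cytokines outside. Just inside it, the fourth-highest library of Tnfsf9 stood at 10.1 and that of Cxcl11 at 10.2. Just outside it, the fourth-highest library of Cxcr6, a receptor of resident T cells, stood at 9.81 and that of Ccr6 at 9.77. Csf2, Csf3, Il2, Il5 and Il10 were measured with at most 3.05, 5.08, 6.54, 2.03 and 0.564 in any library, and Il3, Il13, Il17a, Il36a, Il36g and Il1f10 had no reads. A count of 0 in a library allows a value of up to 1.69 to 3.78, the range over libraries of what 3 reads are worth, for counting error alone.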

How the data were processed

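The deposited table holds, for 33294 gene symbols, a depth-normalized signal in 8 libraries, made by the authors from gene read counts, and 2 columns of the authors' means that were not used. Per the submitters' processing notes, which give no roles or order, the tools were DESeq2 1.34.0, featureCounts and Subread 2.0.1, HISAT2 2.2.1, SAMtools 1.13 and Trimmomatic 0.39, with build rn7. For annotation and strand the sources used here give nothing. All nonzero values were whole multiples of the smallest one in their library (100% within 0.001 reads), so read counts were recovered for depth and for count tests. Groups and replicate numbers come from the sample titles and labels.

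The main test was limma 3.58.1 (R 4.3.3), trend on, fitted to log2(value + 1), age as the only term, two-sided, for genes with at least 10 in at least 4 libraries, with Benjamini-Hochberg adjustment over all of them. Fold changes on this scale understate the change of low genes. The script was tested on simulated data. Alternatives were other pseudocounts, filters and scalings, library weights, no trend, edgeR 4.0.16 and DESeq2 1.42.0 on recovered counts, a replicate block, marker-level covariates and each library left out.

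The members, their roles and the lists were chosen with earlier results of these data known. Genes were named if called, if the ages lay apart, if among the 8 highest, if first by p in a role, as ligand or receptor of such a member, or nearest the threshold; of the other lists, the called genes. Beyond these, some members were named after their values were seen: those called only with a library left out or with a covariate, those at 0, and examples of low or scattered cytokines. Promoters and gene neighbours came from RefSeq tables of build GRCr8; the promoter table held 76 of the 104 members. The values of 1 called member, counted in every total, are not reported here.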

Additional observations from a re-analysis of the deposited data

Results flagged for a closer look

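In 5 of 90 groups of 4 libraries checked, over 45 named genes, the highest or lowest library stood apart from the others by a gap above Dixon's critical share of the group's range, and chance gives about 1 in 20. The cause was not tested in any of them. Il16 was 118.8 in 125-day replicate 1, against 170.2 to 172.1 in the other 125-day libraries. Il17rd was 4367 in 125-day replicate 2, with the others at 3414 to 3550.4. Il1rap was 857.2 in that same library, with the others at 909.1 to 917.9. Cd40 was 69.4 there, with the others at 42.9 to 46.7. Irak2 was 657.8 there, with the others at 745.1 to 754.7.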

How the results depend on the processing

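Under 22 alternatives, 8 of the 23 called members kept call and direction in all, among them Cxcr4, Cxcl13, Tnfrsf10b, Tnfrsf11b, Il13ra2, Il6r and Il18. The other 15 lost the call in at least 1, of which the anterior lobe covariate took 13 and the microglia and macrophage covariate 10. The anterior lobe covariate also called Cxcl1 and Csf2ra higher and Ccr3, Il1rl1, Csf3r and Il18rap lower. With the microglia and macrophage covariate Cxcl14 was called lower. Among the lost calls, Ackr1 and Tnfsf13b had log2 changes of 0.79 and 0.61 with the anterior lobe covariate, with SEs of 0.26 and 0.22 against 0.18 and 0.15. That of Tnfsf10 went from 0.41 to 0.27. The cause of the losses and gains was not tested. Of the other settings, the fit with no filter took the calls of Cxcl12, Il15ra, Il1r1 and Tnfsf4, that with no trend those of Cxcl12 and Il1r1, equal totals those of Il15ra, Il1rapl1 and Tnfsf10, upper quartile scaling and edgeR each that of Il15ra, and a pseudocount of 0.5 and DESeq2 each that of Tnfsf4. Members higher and lower, 9 and 14 as reported, were 17 and 28 with library weights. They were 4 and 12 with the anterior lobe covariate, and 6 and 8 with the microglia and macrophage covariate. The anterior lobe covariate thus called 15.4% of members, beside 14.7% of all genes. The microglia and macrophage covariate called 13.5% of members, beside 10.8% of all genes. Leaving out a library gave 4 to 13 higher and 7 to 19 lower. Over all genes, 1585 higher and 1589 lower became 3973 and 3919 with library weights and 942 and 1001 with the microglia and macrophage covariate, and leaving out a library gave 860 to 2846 and 1032 to 2649. Both count tests on recovered reads gave close numbers of members: 8 higher and 15 lower by edgeR, 9 and 17 by DESeq2. No called member changed direction under any alternative. Members not called did: the sign changed for 24 with the anterior lobe covariate, 10 with library weights, 6 with the microglia and macrophage covariate, 13 without 35-day replicate 3, 2 to 7 with another library left out and 0 to 5 under the remaining settings. Among them Il11ra1 was 0.13 with the anterior lobe covariate and -0.18 to 0.013 with a library left out, Il13ra1 was -0.034 with that covariate, and Il17rd was -0.25 with library weights, -0.51 with that covariate and -0.17 to 0.27 with a library left out, the sign changes of these 2 genes by removal being those of 35-day replicate 3. With the replicate number as a block, 6 members were higher and 14 lower, without Il15ra, Il1rapl1, Tnfsf10 and Tnfsf4, and 1290 and 1428 of all genes. Same-numbered libraries of both ages correlated at 0.0439, 0.167, -0.00019 and -0.116 in their deviations. Pairs with different numbers ran from -0.223 to 0.219. No pairing by number was seen, but a correlation over all genes cannot exclude it. Depth limits members near the threshold most, where 3 reads are worth 1.69 to 3.78.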

Other observations

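Several symbols under the threshold were uneven between libraries or between the ages and were not tested with the members. Ccl22, a macrophage and dendritic cell chemokine for CCR4, had 10.2, 6.84, 21.4 and 32.3 at 125 days, against 0, 3.1, 0 and 0.564 at 35 days. Ccl9 had 9.14, 12.7, 83.2 and 11.7 at 125 days, against 6.09, 1.03, 6.54 and 3.39 at 35 days, with most of its reads in 125-day replicate 3. For both Ccl22 and Ccl9 every 125-day value lay above every 35-day value, as it did for 13.4% of all genes tested. Ccl21, a chemokine of lymphatic vessels, was 40.3 in the 35-day replicate 3, the library with the highest anterior lobe marker level, and 1.26 to 20.7 in the others.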
